A study of Mus musculus with 6 samples.

Results

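The EGF receptor family and its ligands were followed in mouse lens capsules after cataract surgery. The members were taken by gene symbol and comprise 4 receptors (Egfr, Erbb2, Erbb3 and Erbb4) and 6 ligands (Hbegf, Areg, Ereg, Tgfa, Btc and Nrg1), which are 10 of the 56940 genes listed in every library. All 10 were found. The study removed the fiber cells of wildtype C57BL/6 mice and left the capsule with its attached lens epithelial cells (LEC) in the eye. Capsules left in the eye for 5 days after the operation (3 libraries) were compared with capsules taken at the operation itself, called 0 h (3 libraries). Each library was 1 pool of 5 capsules. Both eyes of a mouse were used, 1 operated on 5 days before the other, and the eye operated on last gave the 0 h capsule, so mice that gave 0 h capsules already carried a 5 day old wound in the fellow eye. Pools of the 2 times may therefore hold capsules of the same mice, and the labels do not say which pools do. The age and sex of the mice were not stated. The labels name no transgene, allele or agent, and both groups went through the same removal of fiber cells.

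ErbB receptors are membrane tyrosine kinases that dimerise when a ligand binds, and they pass the signal to the RAS, ERK and PI3 kinase pathways. The ligands are made as membrane proteins and are cut loose by proteases at the cell surface. EGF, TGF-alpha, HB-EGF, amphiregulin, epiregulin and betacellulin bind the EGF receptor, some of them also ERBB4, whereas neuregulins bind ERBB4, some of them also ERBB3. ERBB2 binds no known ligand and acts as a partner of the other receptors. In epithelia such as cornea and skin this pathway is known for driving cell migration and division in wound closure.

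Libraries held 6207387 to 8682659 gene counts at 5 days and 7709815 to 9774343 at 0 h. Values are normalised CPM, that is counts scaled to a common library total after TMM normalisation, and fold changes are log2 values of 5 days over 0 h from edgeR's quasi-likelihood test. A gene was called at a Benjamini-Hochberg adjusted p under 0.05 over 14676 tested genes, of which 47.6% were called, 25.1% as higher and 22.5% as lower. Of all calls 52.7% were upward, and 62.9% were upward when scaled by total library size, which moved log2 fold changes upward by a median of 0.13. Defining lens genes were present in every library: the 10 lens epithelium markers summed to 15156 to 29561 CPM at 5 days and 93055 to 110314 CPM at 0 h. Of these, 8 were called lower and 1 (Pax6) higher. The 15 macrophage and monocyte markers summed to 572 to 805 CPM at 5 days and 21.0 to 44.1 CPM at 0 h, and all 15 were called higher. The 10 photoreceptor markers summed to 41.2 to 109 CPM at 5 days and 551 to 829 CPM at 0 h, and all 10 were called lower. The 6 neutrophil markers summed to 15.2 to 26.4 CPM at 5 days and 0 to 0.329 CPM at 0 h. Of these, 3 were tested (Csf3r, S100a9 and Cxcr2) and all 3 were called higher, while Ly6g and Mpo were at 0 in all 6 libraries, as were the T cell markers Cd3e, Cd3d and Cd8a. In such bulk samples fewer cells of a type and less RNA per cell cannot be told apart.

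Egfr, Hbegf, Nrg1, Ereg and Erbb2 rose at 5 days, and Erbb4 fell. Of the 10 members 9 passed the low-count filter, 5 were called higher, 1 lower and 3 (Erbb3, Tgfa and Btc) were not called, against 47.6% of all tested genes called. Areg was too sparse to be tested. Ereg, with 1 count over the 0 h libraries, met the filter because of its counts at 5 days and had little room to come out lower. The median log2 fold change of the 9 tested members was 1.15, beside -0.01 for all tested genes. Without Ereg, 4 of the other 8 were called higher, and their median was 1.05. The libraries of both times did not overlap for 8 of the 9 tested members, against 58.1% of all tested genes. In 6 of them, Ereg included, the 5 day libraries lay above (29.9% of all tested genes) and in 2, Erbb4 and Tgfa, below (28.2%).

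**Figure D1:**
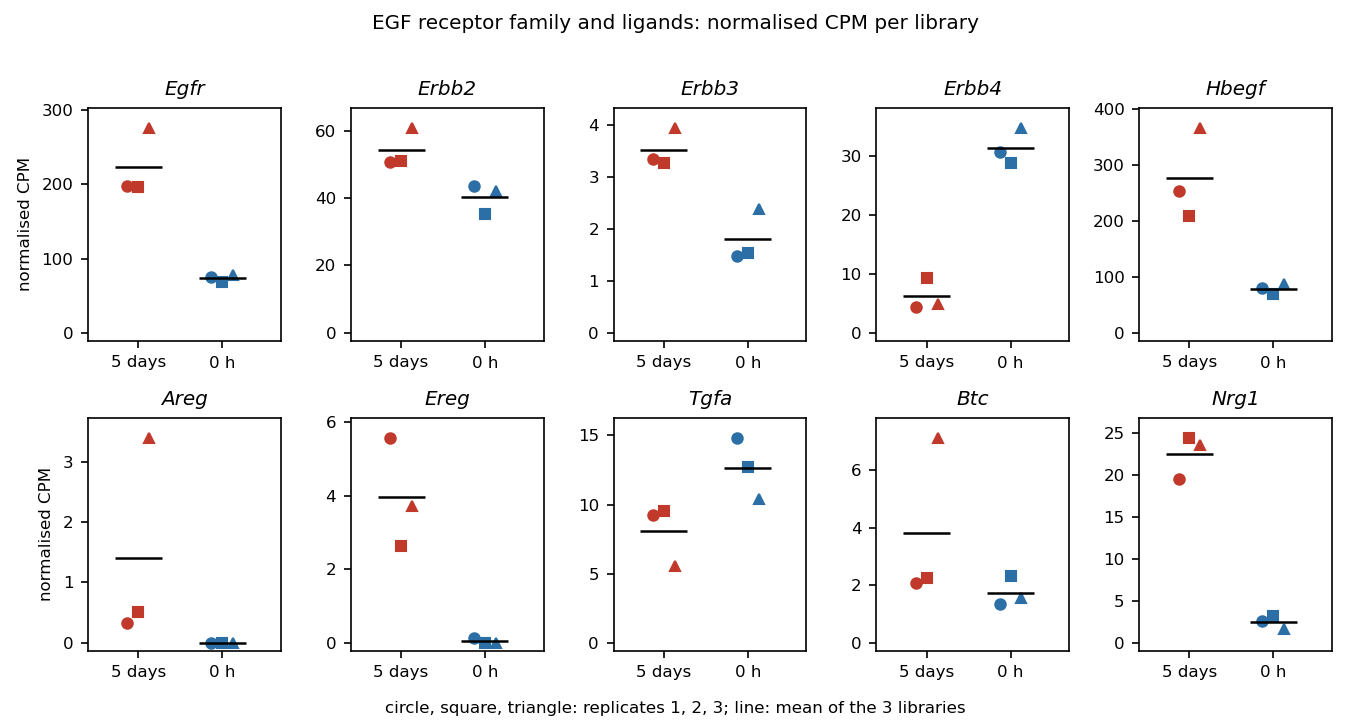
Normalised CPM (vertical axes, each on its own scale) of the 10 members in the 3 libraries at 5 days (red, left) and the 3 at 0 h (blue, right), with the mean as a line. Egfr, Hbegf and Nrg1 lie higher and Erbb4 lower at 5 days in every library, while in Areg and Btc replicate 3 at 5 days stands above its group.

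Among the receptors Egfr and Erbb4 went in opposite directions. Egfr (ENSMUSG00000020122), the receptor for EGF and most of the ligands measured here, stood at 198.1, 196.4 and 276.0 CPM at 5 days, against 75.42, 67.91 and 77.5 CPM at 0 h. All libraries at 5 days were above all at 0 h, and replicate 3 was the highest of the later group. The log2 fold change of Egfr was 1.60 (SE 0.14), and edgeR gave an adjusted p of 1.64e-06. Erbb4 (ENSMUSG00000062209), a receptor for neuregulins and betacellulin, stood at 4.456, 9.293 and 4.927 CPM at 5 days, against 30.71, 28.85 and 34.81 CPM at 0 h. The groups did not overlap, and each library at 5 days was below every library at 0 h. Its log2 fold change was -2.33 (SE 0.24), 5.01-fold lower, with an adjusted p of 8.2e-06 by the same edgeR test. The 10 photoreceptor markers fell in the same libraries, with sums of 67.6, 41.2 and 109 CPM at 5 days and 608, 551 and 829 CPM at 0 h. The lens epithelium marker sums also fell, with 25312, 29561 and 15156 CPM at 5 days and 93055, 110314 and 95987 CPM at 0 h. Within the 5 day group Erbb4 was highest in replicate 2, where the photoreceptor sum was lowest and the lens epithelium sum highest. The order of 3 libraries cannot tell such sources apart. The part of retinal or lens epithelial RNA in the Erbb4 result was not tested.

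Erbb2 rose slightly, and Erbb3 was low throughout. Erbb2 (ENSMUSG00000062312), the receptor with no known ligand, stood at 50.77, 51.11 and 60.88 CPM at 5 days and 43.64, 35.44 and 42.09 CPM at 0 h. The groups did not overlap, but the gap between replicate 1 at 5 days and replicate 1 at 0 h was small. Its log2 fold change was 0.43 (SE 0.12), with an adjusted p of 0.0129 by edgeR. That call was lost without replicate 3 at 5 days, with a log2 fold change of 0.32 and adjusted p = 0.0553 in edgeR, and without replicate 2 at 0 h, with 0.34 and adjusted p = 0.0646. Exons of Erbb2 overlap those of Mien1 on the opposite strand in GENCODE M21, and Mien1 itself held 230 counts at 5 days and 366 at 0 h. Erbb3 (ENSMUSG00000018166), which binds neuregulin but has little kinase activity of its own, stood at 3.342, 3.265 and 3.942 CPM at 5 days and 1.482, 1.536 and 2.385 CPM at 0 h. These libraries did not overlap, yet with 83 counts at 5 days and 45 at 0 h the log2 fold change of 0.96 (SE 0.40) was not called (adjusted p = 0.0641 in edgeR), and with total library size it was (log2 fold change 1.09, adjusted p = 0.0402). The Schwann cell markers, which include genes of cells known to carry ERBB3, summed to 11.8 to 12.9 CPM at 5 days and 6.91 to 10.6 CPM at 0 h. Of these markers 3 were tested and 2 called higher, Sox10 among them at 3.42 on the log2 scale, while Pmp2 and Gfra3 were at 0 in all libraries, and their part in the Erbb3 values was not tested.

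The promoters of these 3 receptors are shown because the genes differ in the size and direction of their change. The sequences are RefSeq's on build GRCm38.p6, 250 bases before to 50 bases after the annotated start, written 5′ to 3′ on the gene's strand. Windows of 6 of the 10 members were searched. Capitals mark matches on either strand to any of 5 motifs. These are the AP-1 motif TGANTCA, the cAMP response element (CRE) written TGACGTCA, the GC box written GGGCGG, the TATA motif written TATAAA, and the E-box written CACGTG.
Egfr, chr11:16751953-16752252, plus strand: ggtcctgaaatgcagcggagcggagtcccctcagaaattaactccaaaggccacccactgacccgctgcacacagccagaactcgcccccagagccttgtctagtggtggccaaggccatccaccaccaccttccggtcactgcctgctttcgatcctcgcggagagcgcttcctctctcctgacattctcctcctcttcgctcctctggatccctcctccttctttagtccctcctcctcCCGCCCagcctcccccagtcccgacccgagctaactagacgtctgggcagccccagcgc
Erbb2, chr11:98412234-98412533, plus strand: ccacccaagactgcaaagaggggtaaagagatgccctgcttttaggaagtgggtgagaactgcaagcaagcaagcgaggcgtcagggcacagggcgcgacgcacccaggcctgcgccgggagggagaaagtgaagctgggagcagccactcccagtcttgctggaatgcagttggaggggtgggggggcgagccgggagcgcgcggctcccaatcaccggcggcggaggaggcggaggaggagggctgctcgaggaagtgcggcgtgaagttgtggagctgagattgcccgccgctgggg
Erbb4, chr1:69108010-69108309, minus strand: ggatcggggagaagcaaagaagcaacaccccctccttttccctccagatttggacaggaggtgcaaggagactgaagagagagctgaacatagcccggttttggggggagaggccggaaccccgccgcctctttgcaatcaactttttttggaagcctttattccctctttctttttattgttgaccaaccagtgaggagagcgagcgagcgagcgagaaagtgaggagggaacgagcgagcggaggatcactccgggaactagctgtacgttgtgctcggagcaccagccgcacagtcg
The Egfr window held 1 GC box, at 9 bases before the start (-9), where 35.7% of 32851 promoters of the same length held at least 1. The windows of Erbb2 and Erbb4 held none of the 5 motifs. GC content was 62.3% for Egfr, 66.0% for Erbb2 and 55.3% for Erbb4, with a median of 52.7% over all promoters.

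Per kilobase of exon, the make-up of the receptor family shifted toward Egfr. Shares were taken within each library from counts per kilobase of annotated exon, so that they do not depend on the scaling between libraries. Egfr made up 62.1, 61 and 65.7% of receptor counts per kilobase at 5 days, against 37.5, 39 and 37.7% at 0 h. The libraries did not overlap, and the difference of 24.9 percentage points gave p = 0.1 in an exact two-sided permutation test, as small as 3 libraries a group allow (adjusted p = 0.15 over 3 such comparisons). Erbb2 held 33.5 ± 1.77% at 5 days and 45.3 ± 1.61% at 0 h (SD, n = 3 each). Erbb4 held 1.67 ± 0.853% at 5 days and 14.9 ± 0.81% at 0 h (SD, n = 3 each), and Erbb3 held 1.88 ± 0.106% and 1.74 ± 0.406% at the same times. The ratio of Egfr to Erbb2 per kilobase was 1.80, 1.77 and 2.09 at 5 days and 0.795, 0.882 and 0.847 at 0 h (exact two-sided permutation test, p = 0.1, again the smallest possible, adjusted p = 0.15). Erbb2 thus stood above Egfr per kilobase in every 0 h library and below it in every library at 5 days. The order at 0 h depends on the length used, since with coding length the ratio was 4.25 ± 0.398 at 5 days and 1.90 ± 0.0982 at 0 h (SD, n = 3 each). The change in the ratio was 2.24-fold and cannot depend on the length, which cancels in it.

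**Figure D2:**
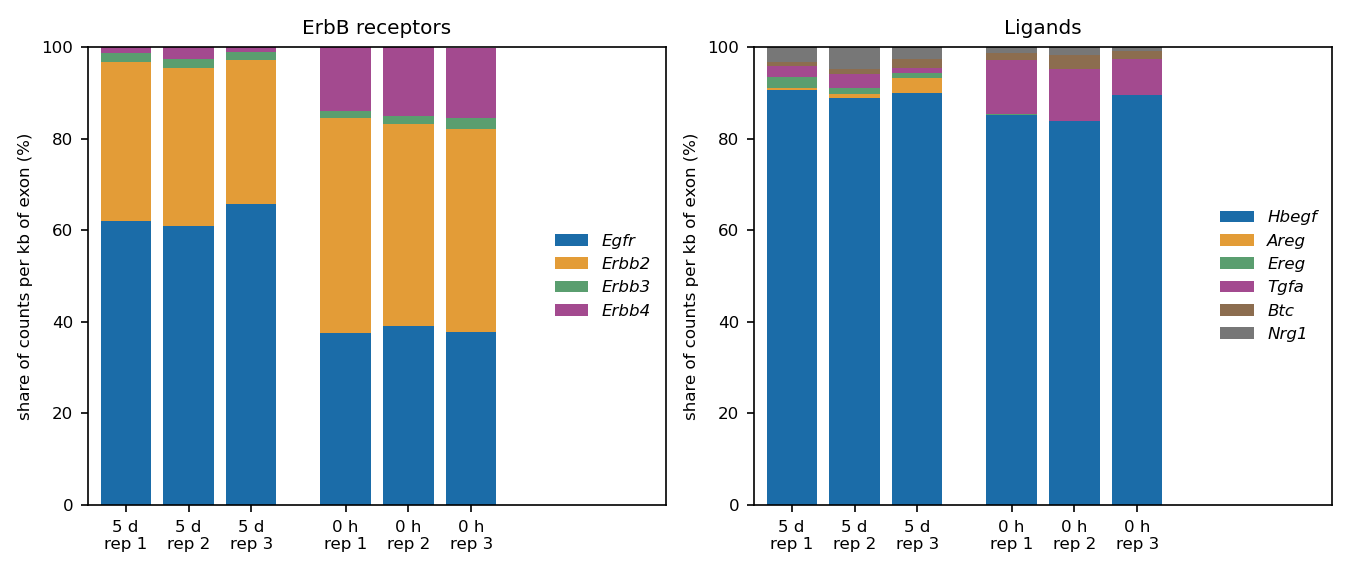
Share of each receptor (left) and each ligand (right) in the family's summed counts per kilobase of exon, in percent, for the 3 libraries at 5 days and the 3 at 0 h. Egfr takes 61 to 65.7% of the receptors at 5 days and 37.5 to 39% at 0 h, Erbb4 shrinks to 1.07 to 2.64%, and Hbegf is the largest ligand in all 6 libraries.

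Hbegf was the most abundant ligand per kilobase at both times and rose further. Hbegf (ENSMUSG00000024486), heparin-binding EGF, stood at 254.2, 208.3 and 366.5 CPM at 5 days, against 79.6, 69.34 and 86.92 CPM at 0 h. All libraries at 5 days were above all at 0 h, with replicate 3 the highest. Its log2 fold change was 1.81 (SE 0.18), 3.52-fold, and edgeR gave an adjusted p of 5.57e-06. Of the summed ligand counts per kilobase Hbegf held 90.7, 88.9 and 90% at 5 days and 85.2, 83.8 and 89.5% at 0 h. These shares overlapped (exact two-sided permutation test, p = 0.2, adjusted p = 0.2 over the same 3 comparisons). With coding length in place of exon length the difference was 10.3 rather than 3.72 percentage points and the libraries did not overlap, at 90.5 ± 1.78% at 5 days and 80.1 ± 3.88% at 0 h (SD, n = 3 each; exact permutation p = 0.1). Macrophages are known to make HB-EGF too, and their summed markers moved with Hbegf between the times. Within the 5 day group the marker sum was 805, 572 and 638 CPM in replicates 1 to 3. The order of 3 libraries cannot settle the source, and the part of macrophage RNA in the rise was not tested.

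Nrg1 (ENSMUSG00000062991), neuregulin 1, the ligand of ERBB3 and ERBB4, stood at 19.42, 24.36 and 23.54 CPM at 5 days, against 2.559, 3.182 and 1.669 CPM at 0 h. The groups were far apart relative to their spread, and replicate 2 was the highest at 5 days. Its log2 fold change was 3.17 (SE 0.25), 9.02-fold, with an adjusted p of 8.33e-07 by edgeR, the smallest among the members. Exons of Nrg1 overlap those of another gene on the opposite strand in GENCODE M21, which was not among the genes counted here. Nrg1 rose in the same libraries in which Erbb4 fell, and it held 3.6 ± 1.12% of the ligand counts per kilobase at 5 days and 1.29 ± 0.496% at 0 h (SD, n = 3 each). The endothelium markers summed to 28 to 52.3 CPM at 5 days and 7.81 to 14.6 CPM at 0 h. Of 6 tested, 4 were called higher and 0 lower, and all 3 tested iris muscle markers were called higher. The part of such cells in the Nrg1 values was not tested.

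The sparse ligands Ereg and Areg were almost without counts at 0 h. Ereg (ENSMUSG00000029377), epiregulin, a ligand of EGFR and ERBB4, stood at 5.57, 2.637 and 3.723 CPM at 5 days, against 0.1347, 0 and 0 CPM at 0 h. The groups did not overlap. The macrophage and monocyte marker sums, all 15 of whose genes rose, stood in the same order within the 5 day group (805, 572 and 638 CPM). An order of 3 libraries cannot settle the source, and the part of macrophage RNA in the Ereg values was not tested. From 90 counts at 5 days and 1 count at 0 h Ereg was 96.0-fold higher (95% exact counting interval 16.8 to 3831), with an adjusted p of 6.2e-05 by edgeR. The single 0 h count lay in replicate 1, and without that library Ereg was at least 22.5-fold higher, with the 0 h group set to a floor of 3 counts in sum. Exons of Ereg overlap Gm19610 on the opposite strand, which had 10 counts at 5 days and 0 at 0 h. Areg (ENSMUSG00000029378), amphiregulin, a ligand of EGFR alone, had 2, 4 and 31 counts at 5 days and none at 0 h, or 0.3183, 0.5023 and 3.394 CPM at 5 days against 0 at 0 h. From the 37 counts pooled over the 5 day libraries, relative to their pooled depth, it was at least 13.1-fold higher with the 0 h group at the same floor of 3 counts in sum, and at least 3.5-fold higher without replicate 3 at 5 days, where 6 counts remained. Areg did not pass the filter. With no filter its edgeR log2 fold change was 6.56, a size that depends on the prior count. The adjusted p of 4.06e-05 from that edgeR fit cannot be set beside those of the main fit. There the adjusted p of Egfr, for one, was 6.93e-38, against 1.64e-06 in the main edgeR fit. With no counts at 0 h Areg could only come out higher, and nothing is read from this p. Floors and intervals cover counting error alone.

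Tgfa and Btc were not called. Tgfa (ENSMUSG00000029999), TGF-alpha, a ligand of EGFR, stood at 9.23, 9.544 and 5.584 CPM at 5 days, against 14.82, 12.73 and 10.37 CPM at 0 h. Every library at 5 days was below every library at 0 h, and replicate 3 was the lowest at both times. The log2 fold change was -0.65 (SE 0.25), with an adjusted p of 0.0544 by edgeR, so Tgfa stayed just outside the threshold in the main test, and it passed under 5 of 15 other settings. As a share of ligand counts per kilobase Tgfa held 2.17 ± 1.04% at 5 days and 10.4 ± 2.13% at 0 h (SD, n = 3 each). Btc (ENSMUSG00000082361), betacellulin, a ligand of EGFR and ERBB4, stood at 2.069, 2.26 and 7.117 CPM at 5 days and 1.347, 2.304 and 1.55 CPM at 0 h. The groups overlapped, and the log2 fold change of 1.15 (SE 0.53, adjusted p = 0.0954 in edgeR) was 0.30 without replicate 3 at 5 days.

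Replicate 3 at 5 days, which was the highest library for Areg and Btc, also held keratins of surface epithelium. Krt14, a keratin of basal epithelial cells, stood at 0.318, 0.251 and 45.8 CPM in replicates 1 to 3 at 5 days, and at 0, 0 and 0.119 CPM at 0 h. Krt5, its partner, stood at 0.159, 0.251 and 19.9 CPM at 5 days and 0, 0 and 0.238 CPM at 0 h, and the wound keratin Krt6a at 0, 0.126 and 9.53 CPM at 5 days and 0, 0.549 and 0 CPM at 0 h. The other markers of the list did not share this pattern throughout: Krt15 was lowest in replicate 3 at 5 days, with 3.98, 3.52 and 2.08 CPM at 5 days and 14.8, 11.5 and 9.42 CPM at 0 h, and Krt12 was highest in replicate 1. Of the 2 tested, Krt15 and Aldh3a1, both were called lower. Over the 10 listed markers of cornea and surface epithelium the sum was 428 to 643 CPM at 5 days and 811 to 1085 CPM at 0 h, most of it Aldh3a1, and Ly6d was at 0 in all libraries. These keratins were picked out after their values were seen. Their part in the Areg and Btc values was not tested, and Egfr, Hbegf, Nrg1 and Erbb4 kept their calls without that library, at log2 fold changes of 1.41, 1.54, 3.12 and -2.17.

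**Figure D3:**
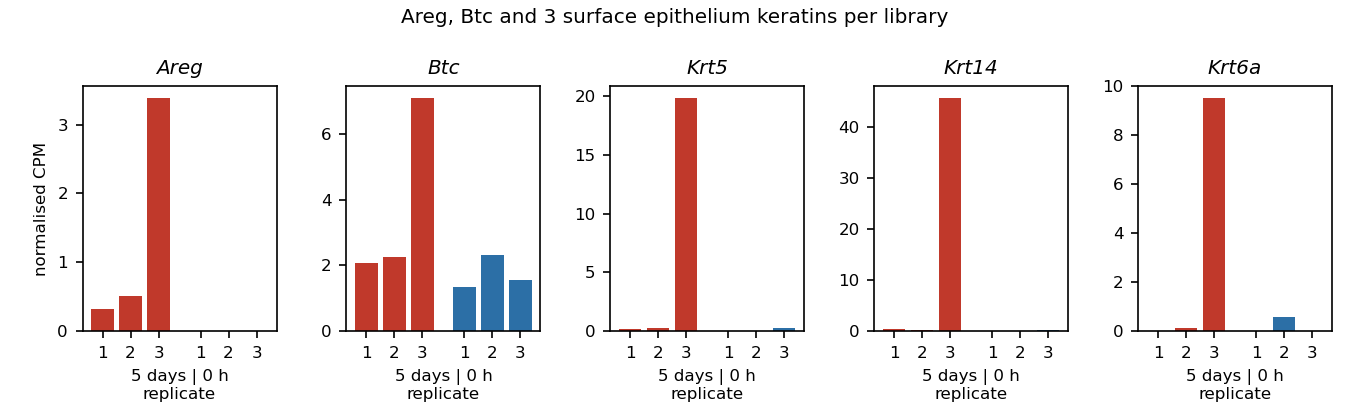
Normalised CPM (vertical axes, each on its own scale) of Areg, Btc and the keratins Krt5, Krt14 and Krt6a in each replicate at 5 days (red, left) and 0 h (blue, right). In all 5 genes replicate 3 at 5 days is the highest library, with 3.394 CPM for Areg, 7.117 CPM for Btc and 45.8 CPM for Krt14.

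Areg, Ereg, Btc and the related ligand gene Epgn lie next to each other on chromosome 5 with no other protein-coding gene between them in RefSeq's GRCm38.p6 annotation. The Areg promoter is shown because Areg had no counts at 0 h and because its window held the most motif matches of the 6 member windows searched. The sequence is from the same source, with capitals marking the same motifs.
Areg, chr5:91139349-91139648, plus strand: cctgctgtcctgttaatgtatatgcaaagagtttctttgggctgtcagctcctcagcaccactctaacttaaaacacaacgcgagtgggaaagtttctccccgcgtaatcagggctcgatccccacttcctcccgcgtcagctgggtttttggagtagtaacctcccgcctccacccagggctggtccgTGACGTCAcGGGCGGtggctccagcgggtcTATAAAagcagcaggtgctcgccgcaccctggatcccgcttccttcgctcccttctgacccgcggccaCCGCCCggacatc
It held 1 CRE at -61, a TATA box at -31 and GC boxes at -52 and 38, counted from the annotated start. A CRE was present in 1.79% and a TATA box in 13.6% of the 32851 promoters. No AP-1 match lay in any of the 6 member windows, where 7.81% of all promoters held at least 1, and the neighbouring Btc window held none of the 5 motifs.

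Ordered by level per kilobase of exon, the members at 5 days ran from Hbegf (57.2 ± 16.8 CPM per kilobase) through Egfr (19.7 ± 4.02), Erbb2 (10.4 ± 1.1) and Nrg1 (2.17 ± 0.256) to Tgfa (1.25 ± 0.339), all SD with n = 3. Libraries of neighbours in this order did not overlap down to Tgfa. Below it Areg, Ereg, Btc, Erbb3 and Erbb4, with means of 1.16 down to 0.504 CPM per kilobase, each overlapped the next. At 0 h the order was Hbegf (16.3 ± 1.83 CPM per kilobase), Erbb2 (7.75 ± 0.836), Egfr (6.5 ± 0.445), Erbb4 (2.55 ± 0.247) and Tgfa (1.95 ± 0.342), again SD with n = 3. Here Erbb2 and Egfr overlapped between libraries. Btc, Erbb3 and Nrg1 followed at 0.384, 0.299 and 0.239 CPM per kilobase and overlapped as neighbours, and Ereg and Areg came last. By exon length Nrg1 thus moved up by 4 ranks and Erbb4 down by 6, and Hbegf was the highest member at both times. The ranks and the sizes of these moves depend on the length used. Tgfa, for example, has 6490 bases of exon and 477 of coding length, and Erbb4 12355 and 3924.

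Of the 5 other ligands of the family, 2 were tested and both fell, where 22.5% of all tested genes fell. With 2 genes nothing is read from that count. Nrg2, neuregulin 2, stood at 20.85, 24.11 and 19.93 CPM at 5 days and 30.03, 35.55 and 31.95 CPM at 0 h, a log2 fold change of -0.59 (SE 0.14) with an adjusted p of 0.00375 by edgeR. These libraries did not overlap. Egf stood at 3.183, 1.507 and 0.7664 CPM at 5 days and 6.465, 5.486 and 3.338 CPM at 0 h, a log2 fold change of -1.53 (SE 0.50) with an adjusted p of 0.023 by edgeR. The Egf call was lost without replicate 2 or 3 at 5 days and without replicate 1 or 2 at 0 h, where the log2 fold change was -1.48 to -1.15, and without replicate 1 at 5 days it was -2.17 (adjusted p = 0.00656 in edgeR). Nrg4, a ligand of ERBB4, had 5 counts at 5 days and 43 at 0 h, Nrg3 had 16 at 5 days and 9 at 0 h, and Epgn had 2 at each time, and none of these passed the filter.

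Genes listed under ligand release rose for 11 of 13 tested (25.1% of all tested genes rose) and fell for 1, with a median log2 fold change of 0.63 beside -0.01 for all tested genes. Adam19, a further protease of the list, passed the filter through the 5 day libraries alone, and without it 10 of 12 rose. Adam12, a membrane protease known to shed HB-EGF, stood at 175.4, 158.7 and 264.9 CPM at 5 days and 6.869, 6.693 and 5.246 CPM at 0 h. This is a log2 fold change of 4.99 (SE 0.22), with an adjusted p of 8.84e-09 by edgeR. Adam9 was the called gene of highest expression and rose by 0.53 (SE 0.10) on the log2 scale, and Tmem8b, whose place in ligand release is uncertain, fell by 0.56 (SE 0.16), a call lost without replicate 3 at 0 h. The following were named after their values were seen, for their roles. The main sheddase genes Adam17 and Adam10 rose by 0.59 and 0.45 on the log2 scale. The gene of the iRhom protein Rhbdf1 rose by 1.61 and that of the iRhom partner Frmd8 by 1.97, whereas Rhbdf2 at 0.22 was not called (adjusted p = 0.193 in edgeR). Cd9, a tetraspanin that binds HB-EGF precursor, stood at 172.2 ± 23.0 CPM at 5 days and 74.47 ± 7.69 CPM at 0 h (SD, n = 3 each).

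Inhibitors and turnover regulators of the receptors rose for 8 of 17 tested, 0 were called lower and 9 were not called, with a median of 0.27. The 8 called, all higher, were 47.1% of those tested, where 47.6% of all tested genes were called, 25.1% higher and 22.5% lower. Nothing is read from these counts. The count called lower was 0 by edgeR under every other setting, and also 0 by DESeq2 and by limma-voom, and 0 of the 17 lay lower at an unadjusted p under 0.05 in edgeR. Sh3kbp1, an adaptor of CBL in receptor endocytosis, rose by 3.32 (SE 0.15) on the log2 scale, with 108.1 ± 19.8 CPM at 5 days and 10.79 ± 0.846 CPM at 0 h (SD, n = 3 each). Cbl, the ubiquitin ligase that sends the EGF receptor to degradation, stood at 130.2 ± 5.82 CPM at 5 days and 90.59 ± 8.12 CPM at 0 h (SD, n = 3 each), a log2 fold change of 0.52. The feedback inhibitor genes Errfi1 and Lrig1, named after their values were seen, had log2 fold changes of -0.01 and -0.12 and were not called (adjusted p = 0.973 and 0.371 in edgeR). Lrig1 stood at 229.3 ± 18.4 CPM at 5 days and 249.1 ± 20.6 CPM at 0 h (SD, n = 3 each).

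Relay genes between the receptors and ERK or AKT went both ways. Of 33 tested, 13 rose, 6 fell and 14 were not called, with a median of 0.11, where 25.1% of all tested genes rose and 22.5% fell. The kinase substrate Eps8 had the largest rise, 1.48 (SE 0.29), and Hras the largest fall, -0.82 (SE 0.11). Without replicate 1 at 5 days 8 rather than 13 of these genes were called higher.

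Early response genes, which EGF receptor and ERK signals are known to induce but which other stimuli induce too, rose for 26 of 30 tested and fell for 3, where 25.1% of all tested genes rose and 22.5% fell. Without replicate 2 at 0 h, 1 rather than 3 was called lower. Their median log2 fold change was 2.07, and 25 of the 26 rose at least 2-fold. Plaur, the urokinase receptor, had 637 counts at 5 days and 1 at 0 h, and was 679-fold higher (95% exact counting interval 121 to 26870). Leaving out replicate 1 at 0 h, which held the 1 count, Plaur was at least 159-fold higher, with 0 h at a floor of 3 counts in sum. Fosl1, Egr2, Egr3, Ier3, Plaur and Hmga2 had no 0 h library at the filter's 1.22 CPM, so these 6 passed through the 5 day libraries and had to come out higher. Of the other 24 genes 20 rose, with a median of 1.89. Dusp1, a MAP kinase phosphatase, fell by 1.78 (SE 0.30) on the log2 scale, with 17.82, 15.45 and 42.92 CPM at 5 days and 102.8, 87.11 and 76.07 CPM at 0 h, and its log2 fold change was -2.43 without replicate 3 at 5 days. Cyclin D1 (Ccnd1), the called gene of highest expression in the list, fell by 0.51 (SE 0.15) on that scale, with 190.1 ± 32.7 CPM at 5 days and 271.4 ± 44.4 CPM at 0 h (SD, n = 3 each), a call lost without replicate 2 at 0 h. For 21 of the 26 genes that rose, replicate 3 had the highest value among the 5 day libraries.

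**Figure D4:**
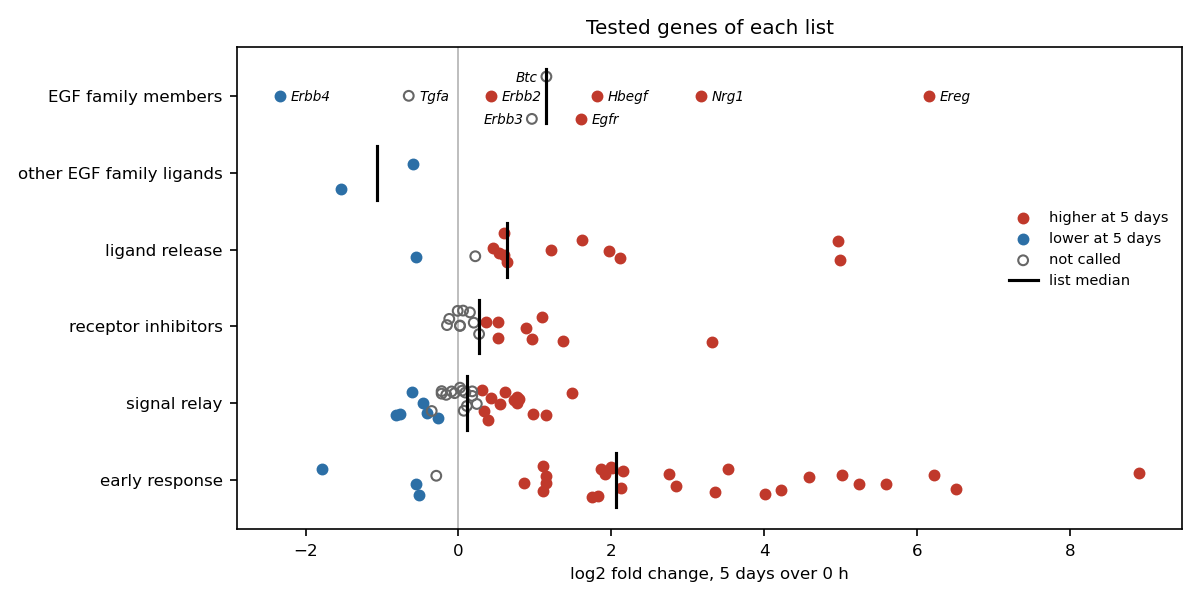
Log2 fold change of 5 days over 0 h (horizontal axis) for each tested gene of the family and of 5 pathway lists (1 line each), with red points called higher, blue called lower, open circles not called, and a bar at each list's median. Early response genes have a median of 2.07, ligand release genes 0.63, receptor inhibitors 0.27 and relay genes 0.11.

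The genes whose log2 CPM over the 6 libraries followed Egfr most closely were Matn2, Angptl2 and Sqstm1 (Pearson r 0.9983, 0.9979 and 0.9979 among 4817 genes whose mean log2 CPM reached 5). For Hbegf they were Akap12, Dcbld2 and Lamc1 (r 0.9998, 0.9982 and 0.9976). With 6 libraries in 2 separate groups these values describe mainly a shared difference between the times together with the place of replicate 3.

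Directions of the 9 tested members did not turn under any setting tried. Egfr, Erbb4, Hbegf and Nrg1 kept their calls under all 15 other settings, and Erbb2 under 12. Ereg kept its direction and call too, but with 1 count at 0 h it had little room to do otherwise.

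**Figure D5:**
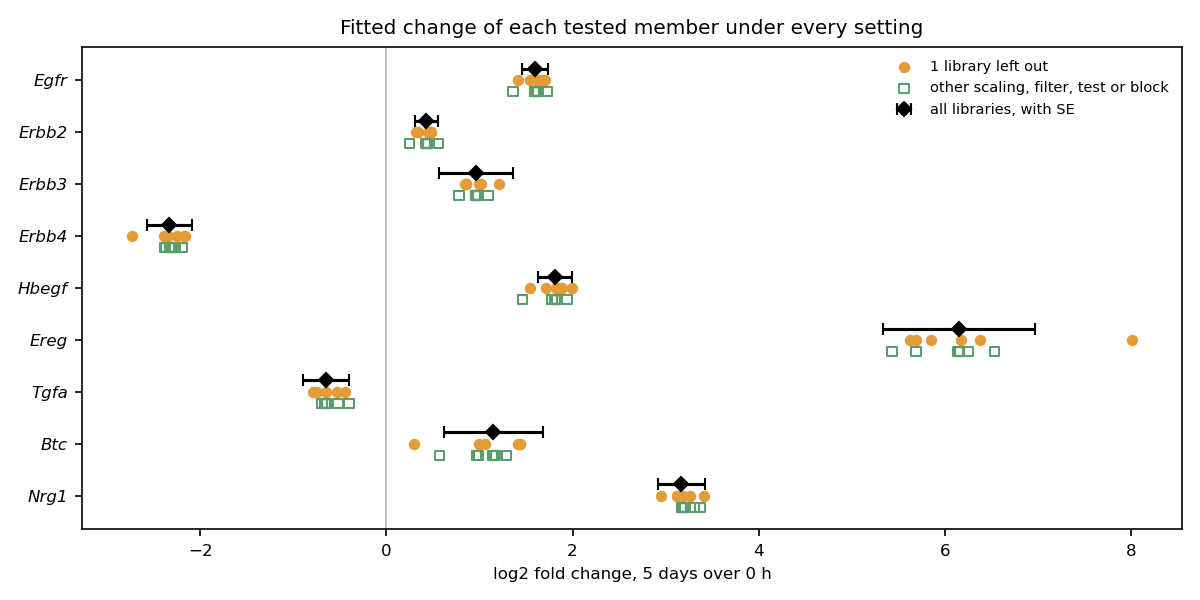
Log2 fold change of 5 days over 0 h (horizontal axis) of the 9 tested members with all libraries (diamonds, with SE), with each library left out (orange) and under other scalings, filters, tests and replicate blocks (green squares). Values of Egfr, Hbegf, Nrg1 and Erbb4 stay close to the main value, Ereg reaches 8.01 without replicate 1 at 0 h, when no 0 h count is left, and Btc is at 0.30 without replicate 3 at 5 days.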

How the data were processed

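RNA was measured by sequencing in 6 libraries of lens capsules, made from total RNA with a stranded Pico kit per the labels. Per the submitters' processing notes, HISAT2, HTSeq and edgeR were used on build GRCm39. Per Ensembl gene, the authors deposited unnormalised counts. The labels name neither versions nor annotation release, and neither strand setting nor counting mode, which leaves overlapping and antisense genes uncertain. In each library 5 entries that name no gene (32.26 to 42.55% of reads) were dropped. Symbols (91.23% of genes) and exon lengths came from GENCODE M21 (GRCm38), and promoters from RefSeq (GRCm38.p6). No coordinates were converted.

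Counts were filtered with edgeR's default, scaled with TMM and tested with edgeR 4.0.16 in R 4.3.3 (quasi-likelihood, Benjamini-Hochberg), after tests on simulated data. Each SE is the log2 fold change over the root of F. Shares were compared by exact permutation in scipy 1.17.1. Other settings included DESeq2 1.42.0 and limma-voom (limma 3.58.1). Depth was 6207387 to 9774343 gene counts. The submitters call the pools biological replicates.

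Members and lists were chosen with earlier results of these data known. All members and other ligands are named. From each further list the rule names the called gene of highest expression, the largest rise and the largest fall. Of the genes so named, 1 is not reported here.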

Additional observations from a re-analysis of the deposited data

How the results depend on the processing

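Under the 15 other settings no tested gene named by the rule changed direction. Ereg and Plaur, with 1 count each at 0 h, had little room to do so. Of 15 other settings, the count of members called higher (5) ranged from 4 to 7 and stayed within 1.5 times. The count of members called lower (1) was 2 with no low-count filter, with limma-voom, with the replicate block by title number, and without replicate 3 at 0 h or replicate 2 at 5 days, where it ranged from 1 to 2 over the libraries left out. The added gene was Tgfa in each case. With the block by library name number (4 libraries), 1 of the other ligands rather than 2 and 0 of the ligand release genes rather than 1 were called lower, and Erbb2 was not called at 0.25. Leaving out 1 library gave 1 to 3 other ligands lower, 0 to 1 ligand release genes lower, 8 to 12 relay genes higher (13 with all) and 1 to 4 early response genes lower (3 with all). The difference in the Egfr share was 27.5 percentage points with no length correction (24.9 with exon length), and that in the Hbegf share 10.3 with coding length (3.72 with exon length). The cause of these shifts was not tested. The replicate block by title number changed no other call of a member, and libraries of the same number did not deviate together (correlations -0.0897 to 0.0434), though whether they share mice is not known. Depth limits Areg, Ereg, Epgn, Nrg3, Nrg4, Btc and Erbb3, whose counts were few.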
